A study of Homo sapiens with 10 samples.

Results

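The genes described here encode 59 proteins of complement, blood clotting and the acute phase response, measured in A549 cells, a line derived from a human lung adenocarcinoma that serves as a stand-in for type II cells of the alveolus. They were chosen by name, as every array spot whose annotated gene symbol was on the list, and the rule itself uses no expression value, although the list was drawn up with earlier results of these data known. Of the 59 genes, 58 had a spot of their own, out of 18334 genes measured, and these 58 held 123 of the 31332 spots that carry a single symbol. C4A was not measured by a spot of its own. One group of 5 cultures was grown in rotating wall vessels (RWV), slowly turning chambers in which cells stay suspended in medium and often form aggregates, and the other group of 5 was grown as flat monolayers (Mono). The labels name no genetic change or agent in either group, only a Dulbecco-type medium supplemented with serum (10%) and glutamine (4 mM), and the time in culture is not given in the sources used here. The labels call the 5 cultures of each condition biological replicates, so p-values measure the spread between cultures of 1 line.

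Complement is a cascade of serum proteases and binding proteins that marks surfaces with C3 fragments and can end in a membrane pore. It is started by the classical, lectin or alternative route and is held back by soluble and membrane-bound regulators. Clotting is a second protease cascade, which ends when thrombin cuts fibrinogen to fibrin, and it is limited by inhibitors and by the protein C system. Acute phase proteins are plasma proteins whose output by the liver rises or falls in inflammation, and epithelial cells of the lung also make some of them.

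RNA was labelled with the Cy3 dye and read on 1-colour arrays. Values below are normalised spot intensities without a unit, averaged over the spots of a gene, and lists of 5 values run from array 1 to array 5 of a group. Levels are set against each other only within a gene, since spots differ in brightness. Fold changes are log2 estimates of RWV over Mono with their standard error, on the log2(intensity + 50) scale, which understates changes of weak genes. A gene passed the test at an adjusted p below 0.05 by limma with Benjamini-Hochberg adjustment over all 18334 genes. A gene is called dim on an array where all its spots lay below 100.

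The median deposited intensity of the arrays was 114 to 138 in RWV and 122 to 184.5 in Mono. All 6 epithelial markers (EPCAM, KRT8, KRT18, KRT19, KRT7 and CDH1) were above the dim level on every array, with a summed level of 66890 to 116634 in RWV and 59928 to 94521 in Mono. Among them KRT19 rose by 1.55 ± 0.36 log2 units and KRT7 fell by 1.71 ± 0.21 on the log2 scale (adjusted p = 0.00659 and 1.35e-04), and the other 4 did not pass. The only KRT19 spot was at or above 60000 in the deposited values on 2 RWV arrays, so its rise is read in part from saturated values. KRT18 had such a spot on all 10 arrays and KRT8 on 3 RWV and 5 Mono arrays, which also limits the summed level. Of 9 measured hepatocyte markers 0 passed the limma test (1, PCK1, at an unadjusted p below 0.05), where 30.2% of all genes passed in either direction. Their summed level was 1861 to 5331 in RWV and 985 to 8379 in Mono. ASGR1 (1113 in RWV and 1938 in Mono) and CPS1 (1475 in RWV and 947 in Mono) were above the dim level on every array. APOC3, ARG1, TAT and CYP2E1 were dim on all 10 arrays, APOB and PCK1 on most and ASGR2 on some. Endothelial and fibroblast markers summed to 155 to 214 and 167 to 265 in RWV, and to 134 to 267 and 204 to 288 in Mono, and 0 of either list passed the limma test (COL1A1 and 0 endothelial genes at an unadjusted p below 0.05). The leukocyte list reached 1362 to 4348 in RWV and 650 to 999.8 in Mono through CD68, a lysosomal protein, which rose by 1.71 ± 0.30 log2 units, while LAPTM5 was dim on every array and PTPRC on all RWV arrays. The platelet and erythroid list summed to 3637 to 6112 in RWV and 1928 to 2940 in Mono, with GP9 higher (1.14 ± 0.16) and ITGA2B lower, the second dim on all RWV arrays and 2 Mono arrays. The part of other cells in the results was not tested, and fewer cells of a kind cannot be told apart from less RNA per cell.

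Many of the measured genes were higher in RWV cultures, from factor B (CFB) and ceruloplasmin (CP) to alpha-1-antitrypsin (SERPINA1) and factor V (F5). Of the 58, 28 rose (48.3%, where 14.8% of all genes rose), 2 fell (15.4% of all genes fell) and 28 did not pass. The rise was 2-fold or more in 24 of the 28 (4.7% of all genes), and the fall was of that size in 0 of the 2 (3.61% of all genes). On 17 genes every RWV array lay above every Mono array (10.7% of all genes), and on SERPINF1 every RWV array lay below (12.3%). The median log2 fold change was 0.64 over the 58 genes and 0.00 over all genes, the second held near 0 by the normalization between arrays. The 28 rises comprised 7 of 16 measured complement components, 6 of 9 complement regulators, 5 of 13 clotting factors, 3 of 5 anticoagulants, 3 of 6 antiproteases and 4 of 9 carriers and other acute phase proteins. Of the 28 genes that did not pass, 11 were dim on all 10 arrays, and 19 had a positive and 9 a negative estimate. Arrays 1 to 3 of both groups differed from arrays 4 and 5 in their lowest intensities, with 5th percentiles of 8 to 20 against 0 to 4. Within arrays 1 to 3 (3 against 3) 15 genes rose and 1 fell, where 1505 of all genes rose and 1715 fell. Within arrays 4 and 5 (2 against 2) 11 rose and 0 fell, where 291 of all genes rose and 331 fell. All 28 estimates were positive in both subsets, but the genes were picked for a rise on these same arrays. Their sign in the subsets was thus largely set in advance and is no separate support.

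**Figure D1:**
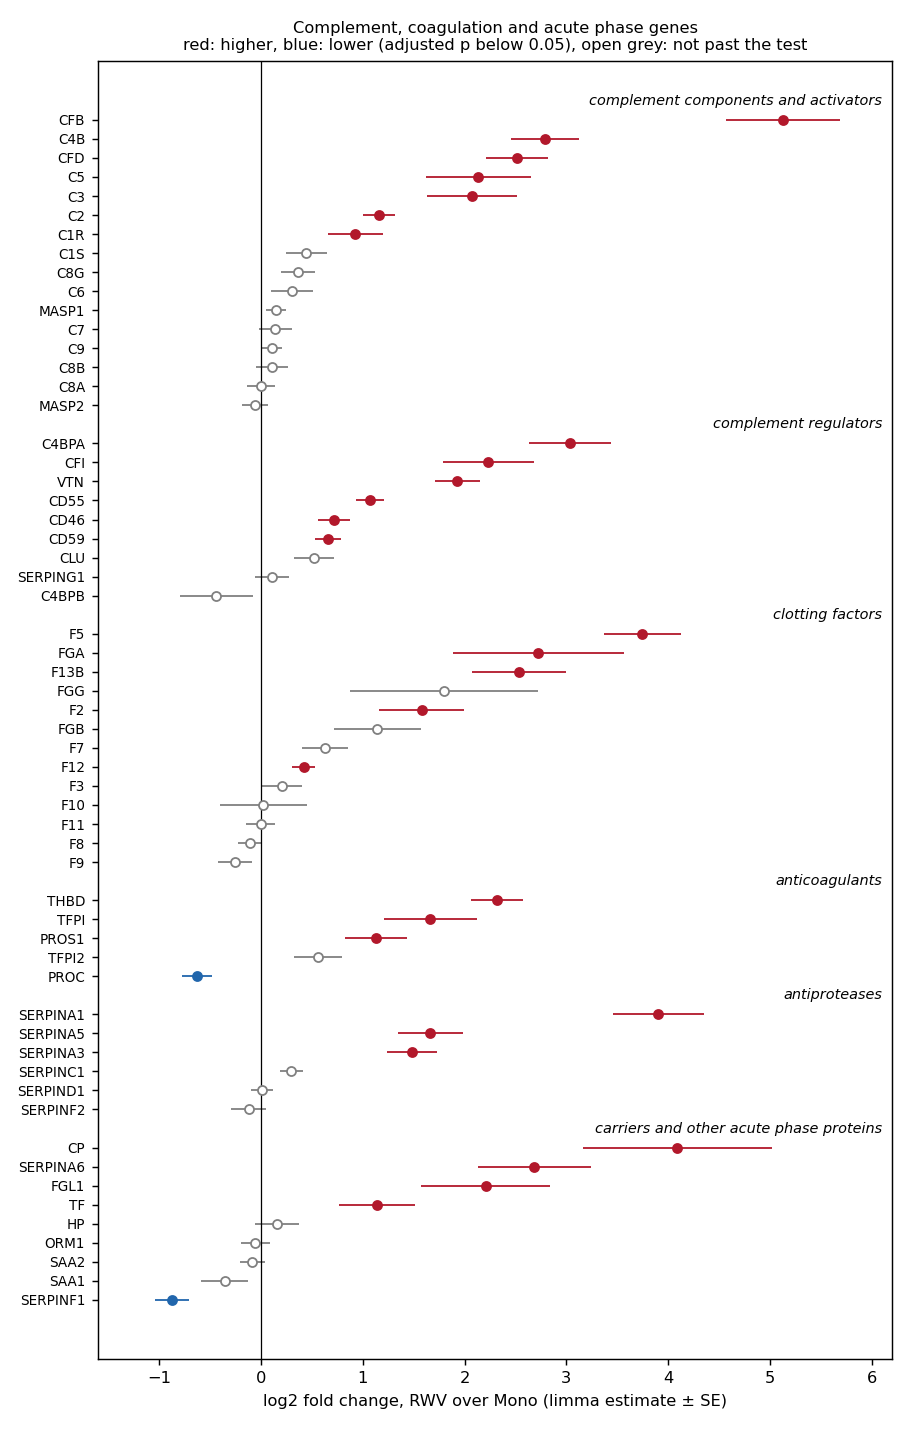
Log2 fold change of RWV over Mono (limma estimate ± standard error) for the 58 measured genes, grouped by role and sorted within each group. Red points are the 28 genes that rose, blue points the 2 that fell (PROC and SERPINF1), and open grey points the 28 that did not pass. The largest rises lie in different groups: CFB, CP, SERPINA1 and F5.

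The alternative route of complement held the largest change of all 58 genes. CFB encodes factor B, the protease that builds the alternative C3 convertase. Its intensity was 13176, 10948, 3233, 10400.5 and 10804 in RWV, against 83.3, 242, 947, 54 and 207 in Mono, where arrays 1 and 4 were dim. RWV 3 was the lowest RWV array and Mono 3 the highest Mono array, and the groups did not overlap. The log2 fold change was 5.13 ± 0.56 (adjusted p = 8.04e-05). CFD encodes factor D, which cuts factor B once it is bound to C3b. Its intensity was 65188, 60929.8, 33801, 64969 and 65226 in RWV, against 8672, 13022, 14623, 4466 and 12446 in Mono, with RWV 3 again lowest and no overlap. It rose by 2.51 ± 0.31 log2 units (adjusted p = 1.41e-04), although its deposited intensity was at or above 60000 on the other 4 RWV arrays, so that the rise is read in part from saturated spots. Among spots that bright, 89.8% to 92.3% on RWV arrays and 5.26% to 8.83% on Mono arrays lay within 200 units of the highest value, so readout and culture cannot be told apart for them.

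The start of CFB is shown because it carried the largest change and holds 2 of the motifs searched. The window runs from 250 bases before to 49 after the start site (RefSeq, GRCh38.p14, chr6:31945845-31946144, plus strand). Capitals mark, in this order, a match to the NF-kB consensus, 112 bases before the start, and a STAT-type match (TTCNNNGAA, either strand), 92 bases before it.
CFB: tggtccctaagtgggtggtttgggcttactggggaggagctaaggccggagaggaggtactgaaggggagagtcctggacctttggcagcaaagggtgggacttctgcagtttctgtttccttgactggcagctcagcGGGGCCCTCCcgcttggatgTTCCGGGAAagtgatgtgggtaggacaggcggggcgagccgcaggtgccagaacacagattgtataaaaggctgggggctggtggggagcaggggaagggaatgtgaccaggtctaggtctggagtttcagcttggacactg
Of 27305 promoter windows of this length, 10.8% held the NF-kB consensus and 7.88% the STAT-type letters. Windows were found for 43 of the 59 genes, of which 2 (CFB and TFPI2) held the NF-kB consensus and 12 (27.9%) the STAT-type letters. Of those 12, 7 rose (CFB, CD59, VTN, FGA, PROS1, SERPINA5 and SERPINA6), and C7, MASP2, F9, F10 and SERPIND1 did not pass. Of all 43 windows, 23 belonged to genes that rose. A C/EBP-type match (TTGCNNAA) lay in 5 of the 43 windows (11.6%) and in 10.6% of all windows. These matches describe letters in the window and show no binding.

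The central component C3, whose cleavage all 3 routes share, also rose. Its intensity was 10609.7, 5148, 1995, 9184 and 9092 in RWV, against 712, 1162, 2386, 1728 and 1754 in Mono. RWV 3 lay below Mono 3, so the groups overlapped, while the other 4 RWV arrays were above all Mono arrays. The estimate was 2.07 ± 0.44 log2 units (adjusted p = 0.00394). The classical and lectin routes cleave C3 with a convertase made of C4 and C2. C4B had an intensity of 1320.1, 919.8, 309, 937 and 1515 in RWV, against 42, 97.9, 108, 96.3 and 98.2 in Mono, where 4 arrays were dim, and it rose by 2.79 ± 0.34 log2 units (adjusted p = 1.36e-04) without overlap. C4A and C4B are near-identical in sequence, so the C4B spot may read both. The protease gene C2 averaged 236, 256, 150.0, 319 and 246 over its 4 spots in RWV, against 63.5, 90.8, 93.9, 61.8 and 82.6 in Mono, where at least 1 spot was above the dim level on every array, again without overlap. It rose by 1.16 ± 0.15 log2 units (adjusted p = 2.24e-04), and the brightest of its spots gave 2.64.

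C1R and C1S encode the paired proteases of the first classical complex, and they lie side by side on chromosome 12. C1R stood at 5992, 7787, 3274, 6695 and 4398 in RWV, against 1772, 3059, 3860, 2196 and 3758 in Mono, and RWV 3 lay among the Mono arrays. It rose by 0.93 ± 0.27 log2 units (adjusted p = 0.0201). It did not pass without RWV 2 (0.80, adjusted p = 0.0519), RWV 4 (0.85, 0.0506) or Mono 1 (0.77, 0.0518), or without normalization between arrays (0.64, 0.177). C1S stood at 14553, 15081, 8629, 17275 and 11645 in RWV, against 6451, 9569, 11111, 9941 and 11738 in Mono, with RWV 3 lowest in RWV and Mono 5 highest in Mono. Its estimate of 0.45 ± 0.21 log2 units did not pass (adjusted p = 0.128). The lectin route proteases MASP1 and MASP2 did not pass either, at 0.15 ± 0.10 and -0.05 ± 0.13, and MASP1 was dim on all arrays.

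Among the genes of the terminal pathway, which forms the membrane pore, C5 was the one that rose. C5 had an intensity of 23622, 12856, 6094, 17802 and 22309 in RWV, against 2530, 3900.4, 7064, 976 and 6111 in Mono. RWV 3 lay below Mono 3 and just below Mono 5, and the other RWV arrays lay above all Mono arrays. The estimate was 2.13 ± 0.51 log2 units (adjusted p = 0.00791). The pore components C6, C8A, C8B and C9 were dim on all 10 arrays, and C7 was dim on 2 RWV and 4 Mono arrays with an estimate of 0.14 ± 0.17 log2 units. C8A stood at 33.1, 26.5, 28.7, 34.1 and 32.1 in RWV, against 13.5, 14.3, 42.3, 44.7 and 46.7 in Mono. C8B stood at 18.4, 22.5, 10.2, 56.4 and 32.1 in RWV, against 12.5, 14.3, 33.1, 32.8 and 14.3 in Mono. The third chain of that component, C8G, had 107, 120, 79.8, 205 and 128 in RWV, against 83.3, 69.3, 117, 80.5 and 76.5 in Mono. Its estimate of 0.37 ± 0.17 log2 units did not pass (adjusted p = 0.123). For C8A, C8B and C8G the RWV values overlapped those of Mono. C6 and C9 gave estimates of 0.31 ± 0.21 and 0.11 ± 0.10.

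**Figure D2:**
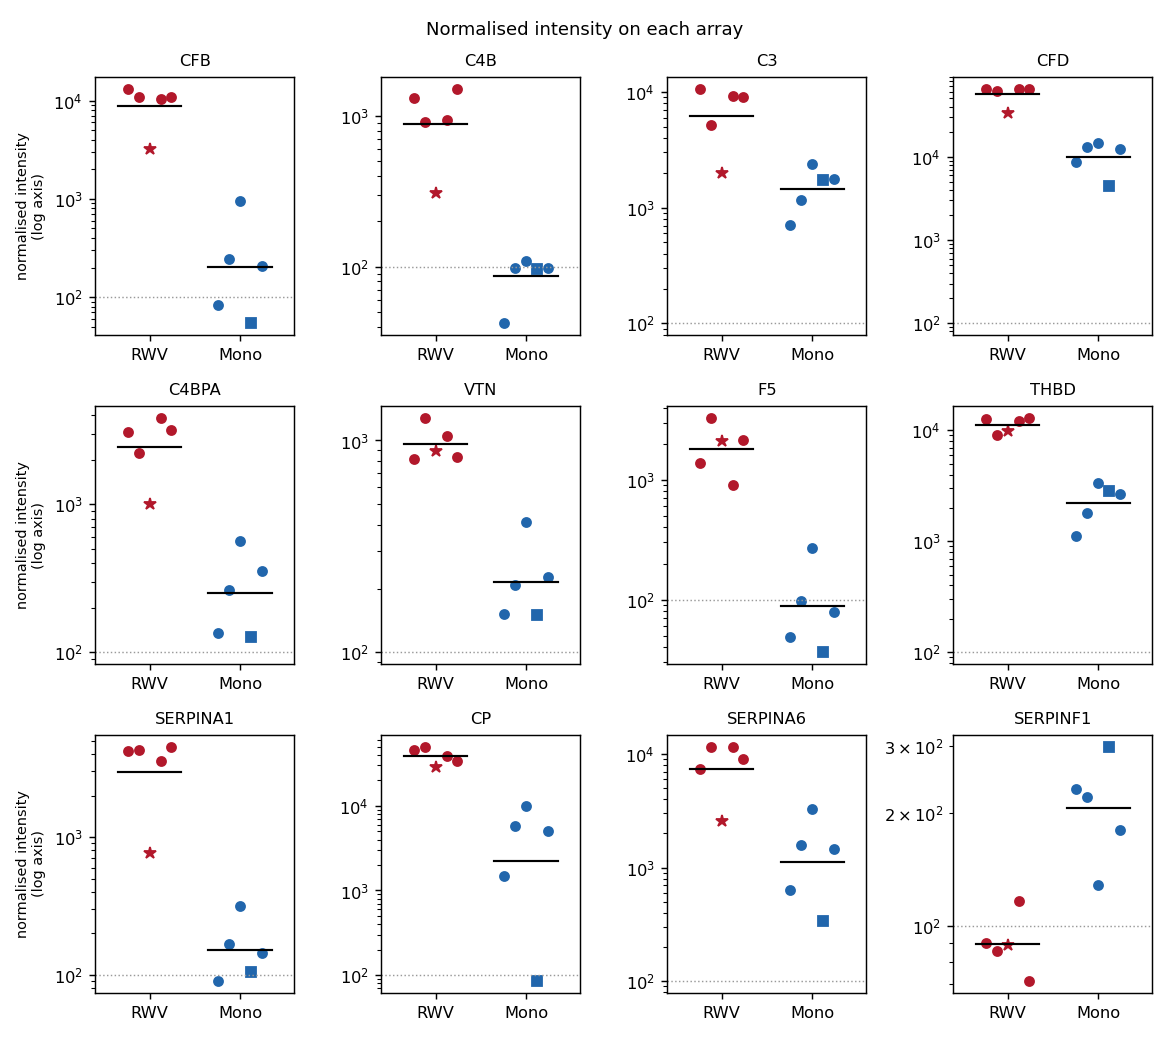
Normalised intensity (log axis) of 12 genes on each of the 5 RWV arrays (red, left) and 5 Mono arrays (blue, right), with the mean taken on the log2(intensity + 50) scale as a black line and the dim level of 100 as a dotted line. The star is RWV 3 and the square Mono 4. RWV 3 is the lowest RWV array for CFB, C4B, C3, CFD, C4BPA, SERPINA1, CP and SERPINA6, and in SERPINF1 every RWV array lies below every Mono array.

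Of 9 regulators that hold complement back, 6 rose. C4BPA, the alpha chain of the fluid phase inhibitor C4b-binding protein, had an intensity of 3076, 2227, 1002, 3836 and 3169 in RWV, against 136, 263, 564, 126 and 352 in Mono. The lowest RWV array, RWV 3, stood above the highest Mono array, Mono 3, and the estimate was 3.04 ± 0.40 log2 units (adjusted p = 2.11e-04). The beta chain gene C4BPB, its neighbour on chromosome 1, was dim on all RWV arrays at 39.1, 27.3, 39.4, 35 and 23.1, against 49.2, 30, 30.5, 304 and 26.7 in Mono, where array 4 stood far above the rest. C4BPB did not pass (-0.44 ± 0.36, adjusted p = 0.42).

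CFI, the protease that cuts C3b and C4b together with cofactors, stood at 729, 699.6, 172, 828 and 857 in RWV, against 40.8, 86.6, 248, 19.5 and 124 in Mono. RWV 3 lay below Mono 3, and the other 4 RWV arrays were above all Mono arrays. CFI rose by 2.23 ± 0.44 log2 units (adjusted p = 0.00257), and its 2 spots gave 1.71 and 2.76. VTN encodes vitronectin, an adhesion protein that also blocks insertion of the pore. It had 819.7, 1279.8, 892, 1051 and 839.5 in RWV, against 152, 207, 411, 150.1 and 227 in Mono, with no overlap and a rise of 1.93 ± 0.22 log2 units (adjusted p = 9.57e-05). Its 2 spots gave 1.14 and 2.72. For VTN the lowest RWV array was RWV 1 and not RWV 3.

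The membrane-bound regulators CD55, CD46 and CD59 rose by 1.07, 0.72 and 0.66, averaged over their spots. For CD55 and CD46 this average includes 1 spot each that was dim on all arrays. The brightest spots of CD55, CD46 and CD59 gave 1.65, 1.12 and 0.72. CD55, which speeds the decay of C3 convertases, had 839, 1067, 743, 732 and 863 in RWV, against 315, 457, 423, 307 and 386 in Mono, and rose by 1.07 ± 0.14 log2 units (adjusted p = 1.77e-04). No RWV array overlapped with Mono. CD46, a membrane cofactor for factor I, averaged 392 in RWV and 218 in Mono and rose by 0.72 ± 0.16 log2 units (adjusted p = 0.0049). CD59, which stops C9 from joining the pore, averaged 2947 in RWV and 1849.8 in Mono and rose by 0.66 ± 0.13 log2 units (adjusted p = 0.00244), but did not pass without normalization between arrays (0.39, adjusted p = 0.330). For both genes all RWV arrays lay above all Mono arrays. Clusterin (CLU), another fluid phase pore inhibitor, did not pass at 0.52 ± 0.19 (adjusted p = 0.06), with 5971 in RWV and 4138 in Mono, but did so with the 2 sets of arrays as a block (adjusted p = 0.0148). SERPING1, the C1 inhibitor, was dim on all arrays (0.11 ± 0.16).

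Of 13 clotting factor genes 5 rose, and F5 had the largest estimate. F5 encodes factor V, the cofactor that speeds thrombin formation. It averaged 1394, 3304, 2125, 913 and 2138 over its 11 spots in RWV, against 48.8, 97.1, 271, 36.3 and 78.2 in Mono, where arrays 1 and 4 were dim in every spot. The lowest RWV array, RWV 4, lay above the highest Mono array, Mono 3. F5 rose by 3.74 ± 0.38 log2 units (adjusted p = 5.45e-05), with 2.68 to 4.24 over its 11 spots. These spots are annotated to the same transcript and read the same RNA samples, so they are not independent. F2, the gene of prothrombin, stood at 2336, 1338, 666, 2548 and 3380.1 in RWV, against 312, 564, 943, 378 and 889 in Mono. RWV 3 lay within the Mono range, and the other RWV arrays were above it. F2 rose by 1.58 ± 0.42 log2 units (adjusted p = 0.0129), with 1.02 to 1.75 over its 11 spots, likewise of the same transcript. It did not pass without normalization between arrays (1.34, adjusted p = 0.0582).

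F13B, the carrier subunit of the fibrin-linking factor XIII, had 698, 948, 113, 752 and 676 in RWV, against 11.5, 50.9, 157, 25.7 and 62.4 in Mono, where all but array 3 were dim. RWV 3 lay below Mono 3, and the other RWV arrays were above every Mono array. The estimate was 2.53 ± 0.47 log2 units (adjusted p = 0.00163). F12, which starts the contact route of clotting, averaged 9950.2 in RWV and 7417 in Mono, and its rise of 0.42 ± 0.12 log2 units (adjusted p = 0.0158) was the smallest of the 28. The rise of F12 did not pass without normalization between arrays (0.12, adjusted p = 0.795).

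Fibrinogen is built from 3 chains whose genes lie side by side on chromosome 4, and all 3 varied widely between Mono arrays. FGA, the alpha chain, stood at 13994, 12746, 3128, 12119 and 11113 in RWV, against 716, 3405, 6433, 112 and 2152 in Mono. FGB, the beta chain, stood at 1133, 1139.8, 390.1, 924 and 909 in RWV, against 209, 646, 663, 107 and 492 in Mono. FGG, the gamma chain, stood at 64875, 64491, 50391, 64476 and 57137 in RWV, against 10820.2, 57012, 64521, 991 and 36811 in Mono. In all 3 genes RWV 3 was the lowest RWV array, Mono 3 the highest and Mono 4 the lowest Mono array, and the groups overlapped. FGA rose by 2.73 ± 0.84 log2 units (adjusted p = 0.028), and FGB (1.14 ± 0.42, adjusted p = 0.0615) and FGG (1.80 ± 0.92, adjusted p = 0.174) did not pass. The brightest of the 3 FGB spots averaged 27357 in RWV and 4981 in Mono, and 1 other was dim on all arrays. By itself the brightest FGB spot gave 2.45 ± 0.89 (adjusted p = 0.0591). The brightest FGA spot gave a like 2.66 ± 0.92 (adjusted p = 0.0488). FGG was at or above 60000 on 4 RWV arrays and on Mono 3 in the deposited values. FGA did not pass without RWV 1 (2.59), RWV 2 (2.62), RWV 4 (2.63), RWV 5 (2.65) or Mono 1 (2.50), with adjusted p of 0.0569 to 0.0705, and its estimate was 1.93 without Mono 4. The FGG estimate was 0.82 without Mono 4 (adjusted p = 0.200).

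The factor genes F7, F3, F8, F9, F10 and F11 did not pass. F7, the protease of the tissue factor route, stood at 173 in RWV and 94.5 in Mono with 0.63 ± 0.23 (adjusted p = 0.0555), and the brighter of its 2 spots gave 1.17 and passed by itself (adjusted p = 0.0206). Tissue factor itself (F3) was dim on all arrays of both groups (0.20 ± 0.20), as were F9 (-0.25 ± 0.16) and F11 (-0.00 ± 0.14). F8 and F10 were dim on some arrays of both groups, with -0.11 ± 0.12 and 0.03 ± 0.42. The F10 values ran from 18.3 to 168 in RWV and from 12.7 to 276 in Mono, with the same lowest and highest Mono arrays as the fibrinogen genes.

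**Figure D3:**
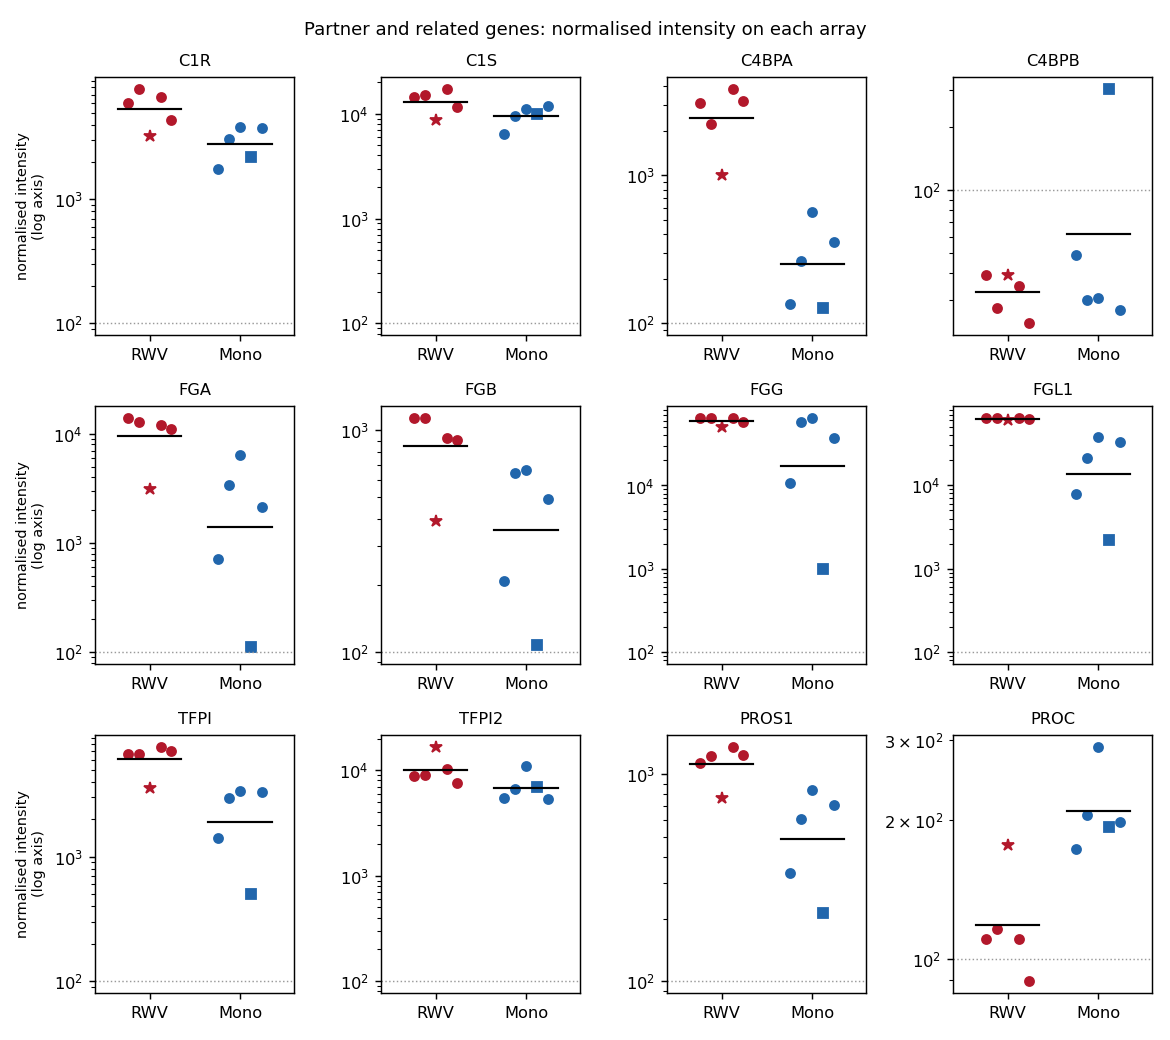
Normalised intensity (log axis) of partner genes on the 5 RWV arrays (red, left) and 5 Mono arrays (blue, right), with means taken on the log2(intensity + 50) scale as black lines and the dim level of 100 as a dotted line. The star is RWV 3 and the square Mono 4, which is the lowest Mono array for C4BPA, FGA, FGB, FGG, FGL1, TFPI and PROS1 and the highest for C4BPB.

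A hexamer of the kind bound by the HNF1 family of liver and epithelial transcription factors (GTTAAT, either strand) lay in 8 of the 43 windows (18.6%), against 6.89% of all windows. In 6 of those 8 genes (C4BPA, F2, F13B, FGA, FGB and SERPINA6) a match lay 30 to 60 bases before the start, as in 14% of the 43 windows and 0.795% of all windows. That interval was chosen after the positions were seen, so the shares describe these windows and test nothing. Stretches from 70 to 21 bases before the start are shown because the letters fall at like places (RefSeq, GRCh38.p14). Of the 6 genes 5 rose, where 23 of all 43 windows belonged to genes that rose. Whether the hexamer goes with a rise was not tested. Capitals mark the hexamer as read on the gene's strand, where ATTAAC is GTTAAT on the other strand.
C4BPA (chr1:207104163-207104212, plus strand): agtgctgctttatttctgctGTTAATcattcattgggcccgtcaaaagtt
F2 (chr11:46719143-46719192, plus strand): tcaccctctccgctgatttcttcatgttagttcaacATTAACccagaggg
F13B (chr1:197067281-197067330, minus strand): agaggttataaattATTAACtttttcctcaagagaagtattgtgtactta
FGA (chr4:154590763-154590812, minus strand): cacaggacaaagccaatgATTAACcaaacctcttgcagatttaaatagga
FGB (chr4:154562910-154562959, plus strand): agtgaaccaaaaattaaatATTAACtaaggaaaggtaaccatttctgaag
SERPINA6 (chr14:94323357-94323406, minus strand): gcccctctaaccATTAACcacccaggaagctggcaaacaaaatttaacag
FGB, which carries the match 51 bases before its start, did not pass. The other 2 genes with the hexamer elsewhere in the window were CFI, which rose, and PROC, which fell. The matches were not read as bound sites.

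Among the genes that limit clotting, 3 of 5 rose and 1 fell. THBD encodes thrombomodulin, the membrane protein that turns thrombin towards activating protein C. Its intensity was 12629, 9051, 9845, 12117 and 12997 in RWV, against 1124, 1804, 3364, 2858 and 2693 in Mono without overlap, and it rose by 2.32 ± 0.26 log2 units (adjusted p = 8.46e-05). TFPI, the inhibitor of the tissue factor route, stood at 6635, 6665, 3535, 7632 and 7094 in RWV, against 1416, 2936, 3371, 497 and 3318 in Mono. The groups lay close at RWV 3 and Mono 3 but did not overlap, and TFPI rose by 1.66 ± 0.46 log2 units (adjusted p = 0.0161), with 0.77 to 2.40 over its 3 spots. Its relative TFPI2, a serine protease inhibitor of the cell matrix, stood at 8889, 8955, 16748, 10303 and 7581 in RWV, against 5424, 6704, 11077, 6873 and 5309 in Mono. RWV 3 was here the highest RWV array, the groups overlapped, and 0.56 ± 0.24 did not pass (adjusted p = 0.099).

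Protein S (PROS1) and protein C (PROC) act together to inactivate factor V, and their genes went opposite ways. PROS1 stood at 1132, 1229, 771, 1361 and 1239 in RWV, against 333, 610.0, 838, 215 and 714 in Mono, overlapping at RWV 3 and Mono 3. It rose by 1.13 ± 0.30 log2 units (adjusted p = 0.0143), and did not pass without normalization between arrays (0.91, adjusted p = 0.0640). PROC stood at 110.4, 116, 176, 110.1 and 89.3 in RWV, against 173, 206, 289.6, 194 and 198 in Mono, where RWV 3 reached above the lowest Mono array. PROC fell by 0.63 ± 0.15 on the log2 scale (adjusted p = 0.00749), with RWV 5 below the dim level.

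Of 6 antiprotease genes 3 rose, all without overlap of the groups. SERPINA1 encodes alpha-1-antitrypsin, the main inhibitor of neutrophil elastase in the lung. It had 4201, 4269.6, 766, 3546 and 4538 in RWV, against 89.8, 166, 316, 104 and 143 in Mono, and rose by 3.90 ± 0.45 log2 units (adjusted p = 1.01e-04). RWV 3 stood far below the other RWV arrays and above every Mono array. SERPINA3, alpha-1-antichymotrypsin, averaged 482, 516, 347, 557 and 479 in RWV, against 82.8, 255, 212, 70.3 and 127 in Mono, and rose by 1.48 ± 0.25 log2 units (adjusted p = 8.66e-04). Of its 3 spots, 1 was dim on all arrays and gave 0.25, and the brightest gave 2.45. SERPINA5, the protein C inhibitor, averaged 289, 488, 102, 333 and 137 in RWV, against 22.6, 60.9, 77.4, 23.3 and 33.4 in Mono, where all arrays but 1 were dim in both spots. It rose by 1.66 ± 0.32 log2 units (adjusted p = 0.0021).

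The thrombin inhibitors did not pass. Antithrombin (SERPINC1) was dim on all arrays, with 0.30 ± 0.11 (adjusted p = 0.0641). Heparin cofactor II (SERPIND1) and the plasmin inhibitor SERPINF2 gave 0.02 ± 0.11 and -0.12 ± 0.17, each dim on 4 arrays of both groups.

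Of the 9 carriers and other acute phase proteins 4 rose, 1 fell and 4 did not pass. CP encodes ceruloplasmin, the copper-carrying ferroxidase of plasma. Its intensity was 45584, 49982, 29085, 38290.2 and 33738 in RWV, against 1480.4, 5699, 9896, 84.8 and 5102 in Mono, where array 4 was dim. The groups did not overlap, and CP rose by 4.09 ± 0.93 log2 units (adjusted p = 0.0057). Without Mono 4 the estimate was 3.07 (adjusted p = 0.000427). SERPINA6, the glucocorticoid carrier of plasma, had 7397, 11519.5, 2564, 11602 and 8986 in RWV, against 640.1, 1565, 3253, 336 and 1462 in Mono, and rose by 2.69 ± 0.56 log2 units (adjusted p = 0.00335). RWV 3 was below Mono 3, and the other RWV arrays were above all Mono arrays.

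FGL1, a fibrinogen-like protein secreted by liver, had 64166, 64205, 59852, 64476 and 62556 in RWV, against 7809.7, 21374, 38034, 2196 and 32725 in Mono. All RWV arrays lay above all Mono arrays. Arrays 1, 2, 4 and 5 of RWV were at the scanner limit in the deposited values (65461, 65458, 65469 and 65467), against 50735 on RWV 3, so that their spread and the size of the rise are limited by saturation. FGL1 rose by 2.21 ± 0.63 log2 units (adjusted p = 0.0199), and did not pass without Mono 1 (adjusted p = 0.0548). TF, the iron carrier transferrin, whose plasma level falls in the acute phase, had 476, 387, 144, 467 and 357 in RWV, against 82.6, 193, 272, 30.2 and 166 in Mono. RWV 3 lay within the Mono range. TF rose by 1.14 ± 0.37 log2 units (adjusted p = 0.0362), and 2 of its 4 spots were dim on all arrays while the brightest gave 2.78. It did not pass without normalization between arrays (1.02, adjusted p = 0.0628) or without RWV 1 (1.04), RWV 2 (1.11), RWV 4 (1.04), RWV 5 (1.12), Mono 1 (1.04) or Mono 4 (0.85), with adjusted p of 0.0642 to 0.0883.

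SERPINF1, the anti-angiogenic pigment epithelium-derived factor, had 90, 85.5, 89.1, 117 and 71.3 in RWV, against 231, 221, 129, 299 and 180.2 in Mono, and fell by 0.87 ± 0.16 on the log2 scale (adjusted p = 0.00195). All RWV arrays lay below all Mono arrays, and 4 RWV arrays were dim. The plasma protein genes SAA1, SAA2, HP and ORM1 did not pass. SAA1 and SAA2, near-identical genes of serum amyloid A have spots that may share signal. SAA1 had 17.7, 35, 7, 26.7 and 36.7 in RWV, against 48, 111, 22.8, 53.3 and 13 in Mono. SAA2 had 35.1, 44.3, 37, 18.2 and 23 in RWV, against 29.8, 53.7, 30.1, 39.4 and 28.9 in Mono. The groups overlapped in both, and SAA2 was dim on all 10 arrays and SAA1 on all but Mono 2, with -0.36 ± 0.23 for SAA1 and -0.09 ± 0.12 for SAA2. Haptoglobin (HP) stood at 93.4 in RWV and 78.5 in Mono (0.16 ± 0.21), and orosomucoid (ORM1) at 118 in RWV and 124 in Mono (-0.06 ± 0.14).

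The arrays of a group were ordered alike across many of these genes. RWV 3 was the lowest RWV array for 34 of the 58 genes (58.6%, and 26.1% of all genes). Mono 3 was the highest Mono array for 39 (67.2%, and 23.0% of all genes), and Mono 4 the lowest for 28 (48.3%, and 26.9% of all genes). The median log2 deviation of the 58 genes from the Mono mean was 0.82, 0.82, 0.32, 0.84 and 0.59 on RWV arrays 1 to 5 and -0.33, 0.08, 0.36, -0.24 and 0.05 on Mono arrays 1 to 5. Over all genes it lay between -0.03 and 0.01 on each of the 10 arrays, but the normalization between arrays holds that value near 0 in advance. The spread within groups was also larger, with a median SD of 0.32 in RWV and 0.38 in Mono, against 0.22 and 0.20 over all genes. Without Mono 4 and RWV 3, 31 of the 58 genes rose and 2 fell, and the added genes were C1S, F7 and FGB. Over all genes 2793 then rose and 2800 fell.

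**Figure D4:**
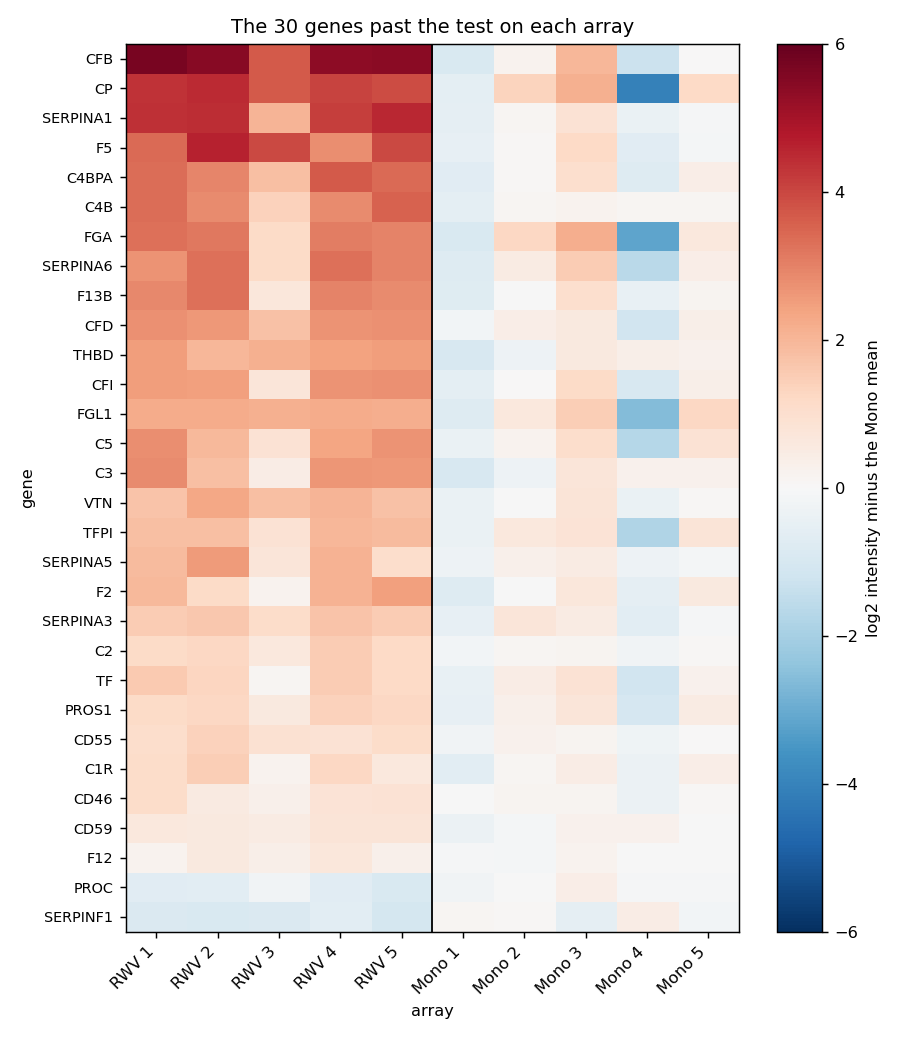
Log2 normalised intensity minus the Mono mean for the 30 genes past the test (rows, sorted by log2 fold change) on the 5 RWV arrays (left) and 5 Mono arrays (right). RWV 3 is paler than its group in most rows, and CP, FGA and FGL1 show the lowest values on Mono 4.

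Of the 58 genes, 26 lie near another of the list, with at most 4 coding genes between neighbours in the RefSeq order of GRCh38.p14. On chromosome 14, SERPINA6, SERPINA1, SERPINA5 and SERPINA3 all rose. On chromosome 6, C2, CFB and C4B all rose, and C4A between the last 2 was not measured. On chromosome 1, C4BPA, CD55 and CD46 rose by 3.04, 1.07 and 0.72, and C4BPB at the end of the same stretch did not pass. Of C1S and C1R the second rose, and of FGB, FGA and FGG only FGA rose. The pairs C8A and C8B, SAA2 and SAA1, F7 and F10, and C7 and C6 held no gene past the test, and of SERPINF2 and SERPINF1 the second fell. Over all 58 genes 28 rose (48.3%), and whether neighbours rose together more often than that share gives was not tested.

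**Figure D5:**
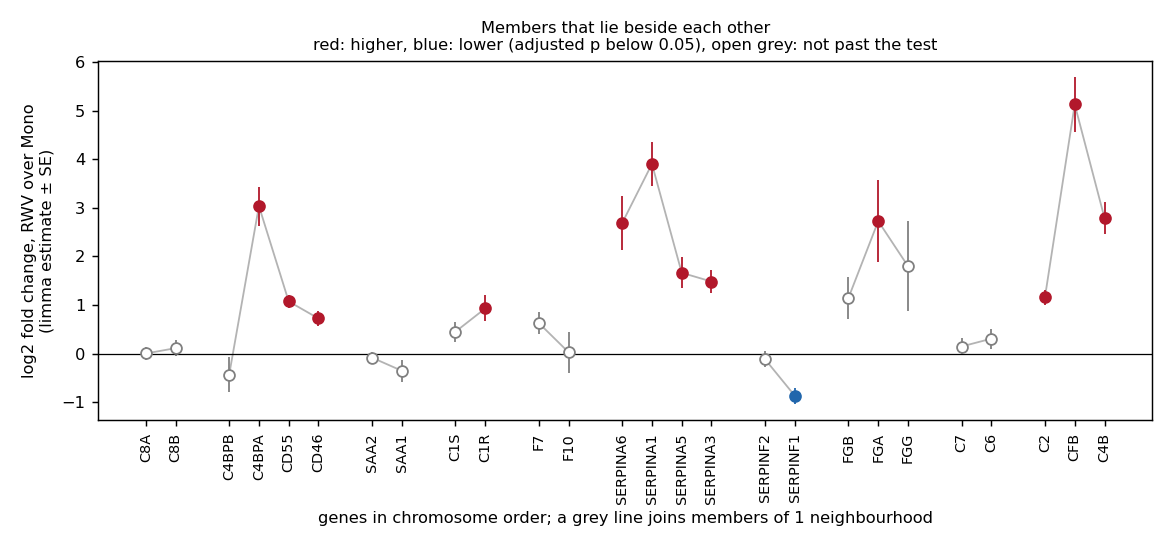
Log2 fold change of RWV over Mono (limma estimate ± standard error) for measured genes that lie near each other on a chromosome, in chromosome order, with a grey line joining each neighbourhood. Red points rose, the blue point (SERPINF1) fell and open grey points did not pass. The 4 serpin genes of chromosome 14 and the 3 complement genes of chromosome 6 are red throughout, and the other neighbourhoods are mixed or hold no red point.

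Plasma proteins outside the list rose too, among them albumin and transthyretin. Of 52 further genes named for complement, clotting, fibrinolysis and the acute phase, 46 were measured, of which 13 rose (28.3%, where 14.8% of all genes rose), 2 fell (15.4% of all genes fell) and 31 did not pass, with a median of 0.11, and 18 were dim on all arrays. Albumin (ALB), the main plasma protein, averaged 1336 in RWV and 46.4 in Mono and rose by 3.85 ± 0.54 log2 units (adjusted p = 2.95e-04), with 4 Mono arrays dim. APOH, a phospholipid-binding plasma protein, averaged 24417 in RWV and 2563 in Mono and rose by 3.23 ± 0.68 log2 units (adjusted p = 0.00387). Transthyretin (TTR), a thyroid hormone carrier, averaged 991 in RWV and 66.1 in Mono and rose by 3.16 ± 0.42 log2 units (adjusted p = 2.09e-04). The hyaluronan-binding plasma protein ITIH2 averaged 856 in RWV and 88.1 in Mono and rose by 2.71 ± 0.38 log2 units (adjusted p = 3.20e-04). The thrombin receptor F2R and the protein C receptor PROCR fell by 1.02 ± 0.19 and 0.96 ± 0.19 on the log2 scale (adjusted p = 0.00195 and 0.00265), and C-reactive protein (CRP) was dim on all arrays. Fewer of the 46 rose without RWV 2 (8), without RWV 4 (7) or without normalization between arrays (8).

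Of 20 listed regulators of acute phase genes 16 were measured, of which 4 rose (25%, where 14.8% of all genes rose) and 1 fell (15.4% of all genes fell). NFKBIZ, a nuclear partner of NF-kB, averaged 1014 in RWV and 392 in Mono and rose by 1.27 ± 0.32 log2 units (adjusted p = 0.0108). ONECUT1, a liver transcription factor, was dim on all Mono arrays, and its RWV level was at least 1.52-fold higher (adjusted p = 0.00969). The NF-kB inhibitor NFKBIA and the transcription factor CEBPA rose by 0.83 ± 0.22 and 0.48 ± 0.14 (adjusted p = 0.0143 and 0.0254). The kinase JAK1, which acts below the interleukin-6 receptor, fell by 0.93 ± 0.18 on the log2 scale (adjusted p = 0.0021). STAT3, CEBPB and CEBPD did not pass, at 0.07 ± 0.16, -0.04 ± 0.16 and 0.80 ± 0.29.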

How the data were processed

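Per the labels' protocols, total RNA of A549 cultures was extracted with a silica column kit, labelled with Cy3 by an Agilent amplification kit and hybridised to 1-colour arrays. The growth protocol names RWV for every sample, so groups were taken from the titles. The deposited values are spot intensities on a linear scale, whole numbers from -66 to 65493 for 45220 spots, with no normalization between arrays visible. Neither scanner nor software nor background method is named in the sources used here.

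Spots were named through the platform annotation (31332 with 1 symbol, 93 with several and 13795 not listed, the last 2 kinds left out). Gene numbers matched the RefSeq genes of GRCh38.p14 for 31291 spots, and 0 symbols changed. The annotation names no genome build, so coordinates are given for promoter windows only (first listed window of each gene). No 2 arrays shared more than 1.46% of their values. Intensities were quantile normalised over the 1-symbol spots, set to at least 0, raised by a pseudocount of 50 and taken to log2, and spots of a gene were averaged. RWV was set against Mono with lmFit and eBayes of limma 3.58.1 in R 4.3.3 (R package data.table, version 1.17.8), two-sided, with Benjamini-Hochberg adjustment over 18334 genes at 0.05, and the code was tested on simulated data. Figures used Python 3.11.15, pandas 2.3.3 and matplotlib 3.10.9. Dim means that all spots of a gene lay below 100, and saturation was set at 60000 of the deposited intensity. Where a gene was dim on all Mono arrays, a fold is given as at least the ratio to that level. The number of arrays limits the precision.

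The genes, lists, motifs, tests and alternatives were chosen with earlier results of these data known. Values on all arrays are given for genes past the test with a change of at least 2-fold and for partner genes, and up to 4 of the largest changes are named in other lists. CRP, CEBPA, PROCR, F2R, STAT3, CEBPB and CEBPD were named after their values were seen. Alternatives were other scalings, pseudocounts, spot choices, filters, blocks, array subsets and leaving out each array.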

Additional observations from a re-analysis of the deposited data

Results flagged for a closer look

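In each gene the highest and lowest array of each group were set against the other 4 by Dixon's test, 116 tests over 58 genes and 2 groups, of which 12 passed. Chance gives about 1 in 20 for a single test. All genes share the same arrays, so the tests are not independent and the count cannot be set against that rate. In 9 of the 12 the array was RWV 3, below the other RWV arrays. CFB was 3233 there against 10400.5 to 13176 on the others, CFD 33801 against 60929.8 to 65226, CFI 172 against 699.6 to 857 and F13B 113 against 676.5 to 948. For CFD the other 4 RWV arrays were saturated, so their narrow range, on which the test rests, is set in part by the scanner limit. FGA was 3128 on RWV 3 against 11113 to 13994, FGB 390.1 against 909 to 1139.8, SERPINA1 766 against 3546 to 4538, TF 144 against 357 to 476 and TFPI 3535 against 6635 to 7632. F3 was 24.5 on RWV 4 and 61.7 to 73.8 on the other RWV arrays, all below the dim level. C4B was 42 on Mono 1 and 96.3 to 108 on the other Mono arrays. C4BPB was 303.9 on Mono 4 and 26.7 to 49.2 on the other Mono arrays, so that Mono 4 alone was above the dim level for this gene. What set these arrays apart was not tested.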

How the results depend on the processing

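Of the 28 genes that rose, 9 passed under every alternative run (C2, C4B, CFB, C4BPA, VTN, F5, THBD, SERPINA1 and SERPINA3), and all 28 rises and both falls kept their sign. Each alternative reuses arrays on which these genes were picked, so the kept signs are no separate support. The count of rises was 22 to 29 and that of falls 2 with other scalings, pseudocounts, spot choices, filters or blocks. Leaving out 1 array at a time gave 24 to 32 rises and 2 falls (32 without RWV 3 or without Mono 3, and 24 without Mono 1), 7 to 15 rises and 2 to 3 falls among the other pathway genes, and 2184 to 2808 rises and 2298 to 2835 falls among all genes. With arrays 1 to 3 only, 15 listed genes rose and 1 fell, 7 other pathway genes rose, and 1505 of all genes rose and 1715 fell. With arrays 4 and 5 only, 11 listed genes rose and 0 fell, 3 other pathway genes rose and 0 fell, and 291 of all genes rose and 331 fell; these fits hold fewer arrays. Without normalization between arrays the median of all genes shifted to -0.13, 1037 of all genes rose and 2518 fell, 22 listed genes rose and 2 fell, and 8 other pathway genes rose. The numbers in the titles were not taken as pairs: same-numbered arrays deviated from their group means with correlations of 0.03, 0.22, -0.15, 0.11 and 0.11, and not every array correlated best with its own number. With the replicate number as a block, 27 listed genes rose and 2 fell (C1R, FGA and TF did not pass, while CLU and TFPI2 did), 8 other pathway genes rose, and 2680 of all genes rose and 2719 fell. The cause of these changes was not tested. Spots near background and near the scanner limit give the least certain values: 11 of the 58 genes were dim on all arrays, 10 of the 28 rises were dim on some Mono arrays, and CFD and FGL1 were saturated on 4 RWV arrays.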
